A study of Mus musculus with 4 samples.

Results

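Pericytes and smooth muscle cells, together the mural cells of the vessel wall, are not the cells that a CD31 sort is meant to collect. Some pericyte transcripts, those of *Rgs5* above all, were nevertheless abundant in these sorted brain samples, while those of *Anpep* were far less so. 10 mural genes were looked up by symbol in the deposited table of normalized values: *Pdgfrb*, *Rgs5*, *Kcnj8*, *Vtn*, *Notch3*, *Cspg4* and *Anpep* as pericyte genes, and *Acta2*, *Tagln* and *Myl9* as contractile genes. 8 of them had a row among the 12693 gene symbols of the series, 7 pericyte genes and 1 contractile gene. *Acta2* and *Tagln* had no row by symbol or by Ensembl identifier, and their expression was not analysed here. The samples were 2 wild-type and 2 *Foxq1* cKO samples from C57BL/6 mouse brain at embryonic day 18. The knockout genotype was FOXQ1fl/fl;Tie2-Cre, in which floxed *Foxq1* is deleted where the Tie2 promoter drives Cre. According to the study's methods, the cells were dissociated from cerebral cortex and sorted on CD31, and the controls were littermates without the Cre transgene. The sample labels name brain as the source and total RNA as the material and do not mention the sort, so the levels of mural genes in a sorted fraction rest on the study's methods. Whether the controls carried floxed alleles is not given in the sources used here. Tie2-Cre acts in endothelial cells (ECs) and also in blood cells, and it is not designed to act in mural cells.

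As background, mural cells sit on the outer face of capillaries and larger vessels and share a basement membrane with the ECs. ECs release platelet-derived growth factor B (PDGF-B), which binds the receptor PDGFRβ on pericytes and recruits them to growing vessels. In the brain, pericytes take part in forming the blood-brain barrier. Smooth muscle cells of arteries and arterioles carry the contractile proteins α-smooth muscle actin (*Acta2*), transgelin (*Tagln*) and a regulatory myosin light chain (*Myl9*). CD31, encoded by *Pecam1*, is a surface protein of ECs, platelets and some leukocytes, so pericytes that stay attached to ECs can pass such a sort.

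Depth was 15827166 to 21466436 reads on listed genes per sample, with a median of 438 to 550 reads per gene. Each gene listed had at least 1 read in every sample, so a total loss could not be seen. Normalized counts are reads divided by 1 scaling factor per sample. *Foxq1*, the targeted gene, had 353 and 297 normalized counts in wild-type 1 and 2, and 5.44 and 32.6 in *Foxq1* cKO 1 and 2. The groups did not overlap, and the cKO mean was at 5.84% of wild-type, with a log2 fold change of -4.47 (SE 1.04). By limma the unadjusted p was 0.00507, and the adjusted p over all genes was 0.857 (Benjamini-Hochberg adjustment). The exons of *Foxq1* share 3200 bp with the antisense gene *A530084C06Rik*, and the strand setting of the read counting is not given in the sources used here.

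None of the 8 mural genes passed the test of *Foxq1* cKO against wild-type. At an unadjusted p under 0.05 in limma, 0 of 8 were higher and 0 of 8 were lower, where 2.17% of the 12472 genes tested were higher and 3.05% were lower. With Benjamini-Hochberg adjustment 0.0% of all genes tested passed in limma, the 8 included. edgeR also gave 0 and DESeq2 gave 59 genes over the whole table. 6 of the 8 had a log2 fold change below 0 and 2 had one above 0. The median over the 8 genes was -0.06, and over all genes tested it was 0.01. The cKO samples lay wholly below the wild-type samples for 1 gene, *Myl9*, and wholly above for none. Over all genes tested the groups were apart in this way for 36.0%, 2239 genes with the cKO samples above and 2249 with them below. With 2 samples against 2, exact permutation of 1 value (two-sided) has a smallest possible p of 0.333, so the 95% interval of each difference is given below. Nothing in the labels says that the samples of a group came from separate embryos, so the p-values measure the spread between these samples only.

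**Figure D1:**
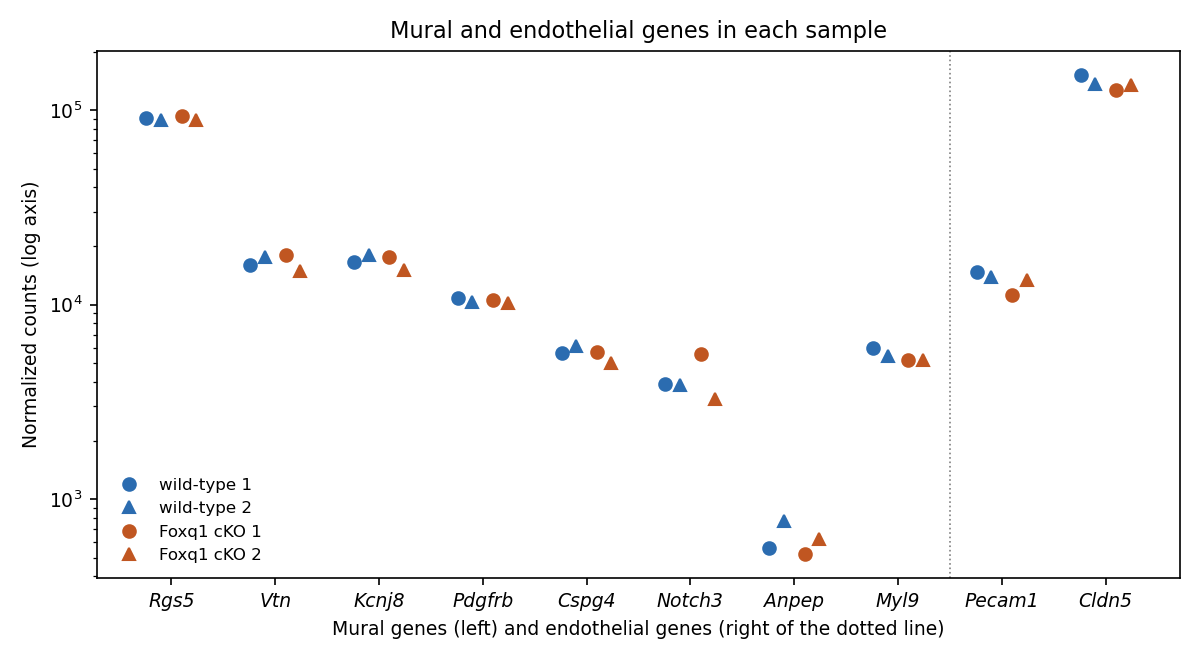
Normalized counts (log axis) of the 8 mural genes with a row and of 2 endothelial genes in each of the 4 samples, 1 point per sample, blue for wild-type and orange for *Foxq1* cKO. The points of *Rgs5* and *Pdgfrb* nearly coincide, those of *Notch3* are spread by *Foxq1* cKO 1, and those of *Pecam1* and *Cldn5* are lower in both cKO samples.

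*Pdgfrb* encodes the PDGF-B receptor of pericytes. It had 10812 and 10307 normalized counts in wild-type 1 and 2, and 10565 and 10161 in *Foxq1* cKO 1 and 2. The 4 values interleaved, and the highest was 1.06 times the lowest. The log2 fold change was -0.03 (SE 0.125, 95% interval -0.33 to 0.28).

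*Rgs5* encodes a regulator of G-protein signalling that is a widely used pericyte marker, and it lies on the plus strand of chromosome 1 at 169655501 to 169695813 in the GRCm38 annotation. It was the eighth most abundant gene of the series in normalized counts. It had 91163 and 89164 normalized counts in wild-type against 93044 and 89248 in *Foxq1* cKO, which was 0.500% to 0.540% of all reads. The groups overlapped and the highest value was 1.04 times the lowest. Its log2 fold change was 0.02 (SE 0.0797, 95% interval -0.18 to 0.21), the narrowest interval of the 8 genes.

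These 2 genes varied little for their level. Of the 1175 genes with a mean of at least 3000 normalized counts, 7 had a smaller ratio of highest to lowest sample than *Rgs5* and 20 had a smaller ratio than *Pdgfrb*. The median ratio over the 1175 genes was 1.34. This is a description, since the level of 3000 was chosen after the values were seen.

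*Kcnj8* encodes Kir6.1, the pore of a potassium channel gated by ATP that marks brain pericytes (chromosome 6, 142564837 to 142571614, minus strand). Wild-type samples had 16641 and 18074 normalized counts, and *Foxq1* cKO samples had 17612 and 15038. Its log2 fold change was -0.09 (SE 0.131, 95% interval -0.41 to 0.23), and *Foxq1* cKO 2 was the lowest of the 4 samples. *Abcc9*, its regulatory subunit SUR2, stood in the wider pericyte list and had a log2 fold change of -0.06 (95% interval -0.56 to 0.44).

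*Vtn* encodes vitronectin, an adhesive glycoprotein of the extracellular matrix that brain pericytes secrete (chromosome 11, 78499091 to 78502324, plus strand). Wild-type samples had 15968 and 17466 normalized counts, and *Foxq1* cKO samples 18018 and 14934. Both wild-type values fell between the 2 cKO values, and the log2 fold change was -0.03 (SE 0.139, 95% interval -0.36 to 0.31).

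*Notch3* encodes the Notch receptor of mural cells, which answers ligands on the neighbouring ECs (chromosome 17, 32120820 to 32166852, minus strand). It had the largest spread within groups of the 8 genes. The wild-type samples had 3920 and 3879 normalized counts, and the *Foxq1* cKO samples had 5542 and 3253. Here, too, the wild-type values lay between the cKO values, which differed 1.70-fold. Between the group means the log2 fold change was 0.12 (SE 0.273, 95% interval -0.54 to 0.79). Without *Foxq1* cKO 1 it was -0.26, and without *Foxq1* cKO 2 it was 0.51. An annotated antisense transcript, *Gm17276*, which had no row, shares 488 bp with its exons, so a part of its reads may belong to the other strand.

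*Cspg4* encodes the proteoglycan NG2, carried by pericytes and also by oligodendrocyte precursors (chromosome 9, 56865033 to 56899870, plus strand). Wild-type samples had 5636 and 6133 normalized counts and *Foxq1* cKO samples, which overlapped them, had 5730 and 5016. Between the groups the log2 fold change was -0.13 (SE 0.159, 95% interval -0.52 to 0.26).

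*Anpep* encodes aminopeptidase N (CD13), a surface protein of brain pericytes that is also found on myeloid cells and fibroblasts (chromosome 7, 79821803 to 79861059, minus strand). It was the least abundant of the 8, with 560 and 768 normalized counts in wild-type against 523 and 622 in *Foxq1* cKO. The groups overlapped. The log2 fold change was -0.20 (SE 0.374), and the 95% interval of -1.11 to 0.71 was the widest of the 8 genes.

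*Myl9* was the 1 contractile gene with a row (chromosome 2, 156775420 to 156781658, plus strand). It had 5982 and 5423 normalized counts in wild-type against 5180 and 5193 in *Foxq1* cKO. Both cKO samples were below both wild-type samples, and the cKO mean was at 91.0% of wild-type. On the log2 scale the difference was -0.14 (SE 0.152, 95% interval -0.51 to 0.24), with an unadjusted p of 0.408.

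Genes of the same families as the contractile proteins are not smooth muscle markers but can share reads with them. The non-muscle actins *Actb* and *Actg1* were lower in both cKO samples, with means of 87.7% and 86.0% of wild-type and unadjusted p-values of 0.0881 and 0.140 in limma. The myosin light chains *Myl6*, *Myl12a* and *Myl12b* had log2 fold changes of -0.05, 0.36 and -0.02. The transgelins *Tagln2* and *Tagln3*, which are expressed outside smooth muscle, were at 0.00 and 0.09. None of these 7 genes passed an unadjusted p of 0.05.

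Summed over the 7 pericyte genes, the level was 144700 and 145791 normalized counts in wild-type 1 and 2, and 151034 and 138272 in *Foxq1* cKO 1 and 2. The wild-type mean was 145245 ± 771 (SD, n = 2) and the cKO mean was 144653 ± 9024 (SD, n = 2), which is 99.6% of wild-type. Without *Rgs5*, which made up the larger part of the sum, it was 97.1%. The sum took 0.800% to 0.877% of the reads in each sample. The 2 cKO samples were the highest and the lowest of the 4. Of the 7 pericyte genes, 6 were higher in *Foxq1* cKO 1 than in *Foxq1* cKO 2, *Anpep* being the exception. In bulk samples, the number of pericytes and the level of these transcripts per pericyte cannot be told apart.

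To compare genes with each other, normalized counts were divided by the length of the merged exons in kb. On this scale the 4-sample means were 19942 for *Rgs5*, 8176 for *Vtn*, 6610 for *Kcnj8*, 4686 for *Myl9*, 1910 for *Pdgfrb*, 513 for *Notch3*, 472 for *Cspg4* and 149 for *Anpep*. The 4-sample ranges of neighbours in this order did not overlap, with 1 exception. *Notch3* and *Cspg4* differed 1.09-fold in their means, and *Notch3* was the higher of the pair in 2 of 4 samples. *Rgs5* was the 19th gene of the series per kb.

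**Figure D2:**
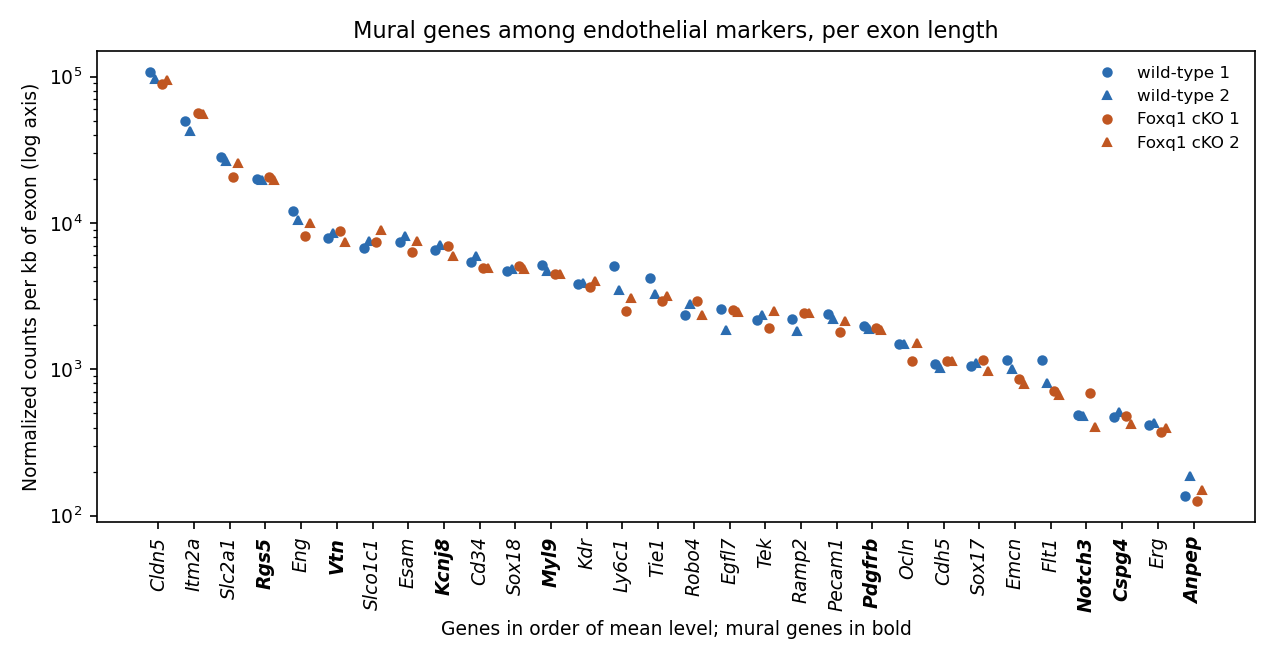
Normalized counts per kb of merged exon (log axis) for the 8 mural genes, in bold, and 22 endothelial markers, ordered by their mean, 1 point per sample. *Rgs5* stood above all but 3 of the 22 endothelial markers, and *Pdgfrb* stood next to *Pecam1* with merged exons as the length.

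Against the endothelial genes, *Pecam1*, the gene of the sort marker, had 2133 normalized counts per kb, less than *Rgs5*, *Vtn*, *Kcnj8* and *Myl9*. *Cldn5*, which encodes the tight junction protein claudin-5 of brain ECs, had 97131 per kb and was the second gene of the series. Per kb, *Rgs5* was at 845% and 884% of *Pecam1* in wild-type against 1144% and 912% in *Foxq1* cKO. In percent of *Cldn5*, its wild-type values were 18.7 and 20.3 and its cKO values 22.9 and 20.6. For both references the cKO samples lay above the wild-type samples, while *Rgs5* itself overlapped between the groups.

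*Pdgfrb* was at 83.2% and 84.8% of *Pecam1* in wild-type against 108% and 86.2% in *Foxq1* cKO. In percent of *Cldn5*, the wild-type samples were at 1.84 and 1.95 and the cKO samples at 2.16 and 1.95. The cKO samples lay above the wild-type samples relative to *Pecam1* but overlapped them relative to *Cldn5*. The means against *Pecam1* in wild-type and in *Foxq1* cKO were 360% and 419% for *Vtn*, 297% and 330% for *Kcnj8*, and 214% and 228% for *Myl9*. These 3 genes overlapped between the groups. *Notch3* had means of 21.0% and 28.5% of *Pecam1*, *Cspg4* of 21.5% and 23.2%, and *Anpep* of 7.03% and 7.02%, again with overlap for all of them.

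The references themselves were lower in both cKO samples. *Pecam1* had 14775 and 13823 normalized counts in wild-type against 11143 and 13406 in *Foxq1* cKO, a log2 fold change of -0.23 (SE 0.141, 95% interval -0.57 to 0.12). *Cldn5* had 151977 and 136639 in wild-type against 126706 and 134826 in *Foxq1* cKO, a log2 fold change of -0.14 (SE 0.0881). Each had an unadjusted p of 0.160 in limma, and for each the cKO samples lay below the wild-type samples. Over all genes tested the groups were apart, in either direction, for 36.0%. Summed over 22 endothelial markers, the cKO level was 94.6% of wild-type, with overlap between the groups. The sums were 646032 and 603022 in wild-type 1 and 2, and 566155 and 615928 in *Foxq1* cKO 1 and 2. Per kb, the 7 pericyte genes together were 14.9% and 16.7% of the endothelial sum in wild-type against 17.6% and 14.9% in *Foxq1* cKO, with overlap. The lengths matter for *Pecam1*, whose merged exons span 6228 bp but whose longest annotated transcript has 3441 bp. With the longest transcript as the length, *Rgs5* was 5.30 times *Pecam1* in wild-type and 6.30 times in *Foxq1* cKO. On the same length, *Pdgfrb* was at 46.9% and 54.1% of *Pecam1*, *Vtn* at 231% and 269%, *Kcnj8* at 164% and 182%, and *Myl9* at 122% and 130%.

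A wider list of 24 pericyte markers had a row for every gene. At an unadjusted p under 0.05 in limma, 0 were higher and 1 was lower in *Foxq1* cKO, and the median log2 fold change was 0.02. For this list and those below, the shares over all genes tested were 2.17% higher and 3.05% lower, and 36.0% had groups that did not overlap. *Cd248*, which encodes endosialin, a surface glycoprotein of pericytes and fibroblasts, was that 1 gene and also the most abundant of the list per kb. It had 12370 and 12802 normalized counts in wild-type against 7195 and 10248 in *Foxq1* cKO, with no overlap. The log2 fold change was -0.55 (SE 0.191, 95% interval -1.02 to -0.08) and the unadjusted p was 0.0276. Its adjusted p was 0.857 in limma with Benjamini-Hochberg adjustment, and without *Foxq1* cKO 1 the log2 fold change was -0.30 with an unadjusted p of 0.140. The next genes of the list per kb were *Ndufa4l2*, a mitochondrial protein of pericytes, at -0.20 (95% interval -0.65 to 0.24), and *Higd1b*, of the same kind, at 0.01 (95% interval -0.63 to 0.65).

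Of a wider list of 24 smooth muscle markers, 14 had a row. *Myh11* and *Cnn1*, the smooth muscle myosin heavy chain and calponin, were among the 10 without one, and these were not analysed here. Of the 14, 0 were higher and 1 was lower at an unadjusted p under 0.05, with a median log2 fold change of 0.06. The 3 most abundant genes of the list per kb were *Csrp1* at -0.07, *Smtn* at 0.02 and *Flna* at -0.04. They encode a LIM protein of smooth muscle, smoothelin and filamin A, and *Flna* is expressed in many cell types.

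**Figure D3:**
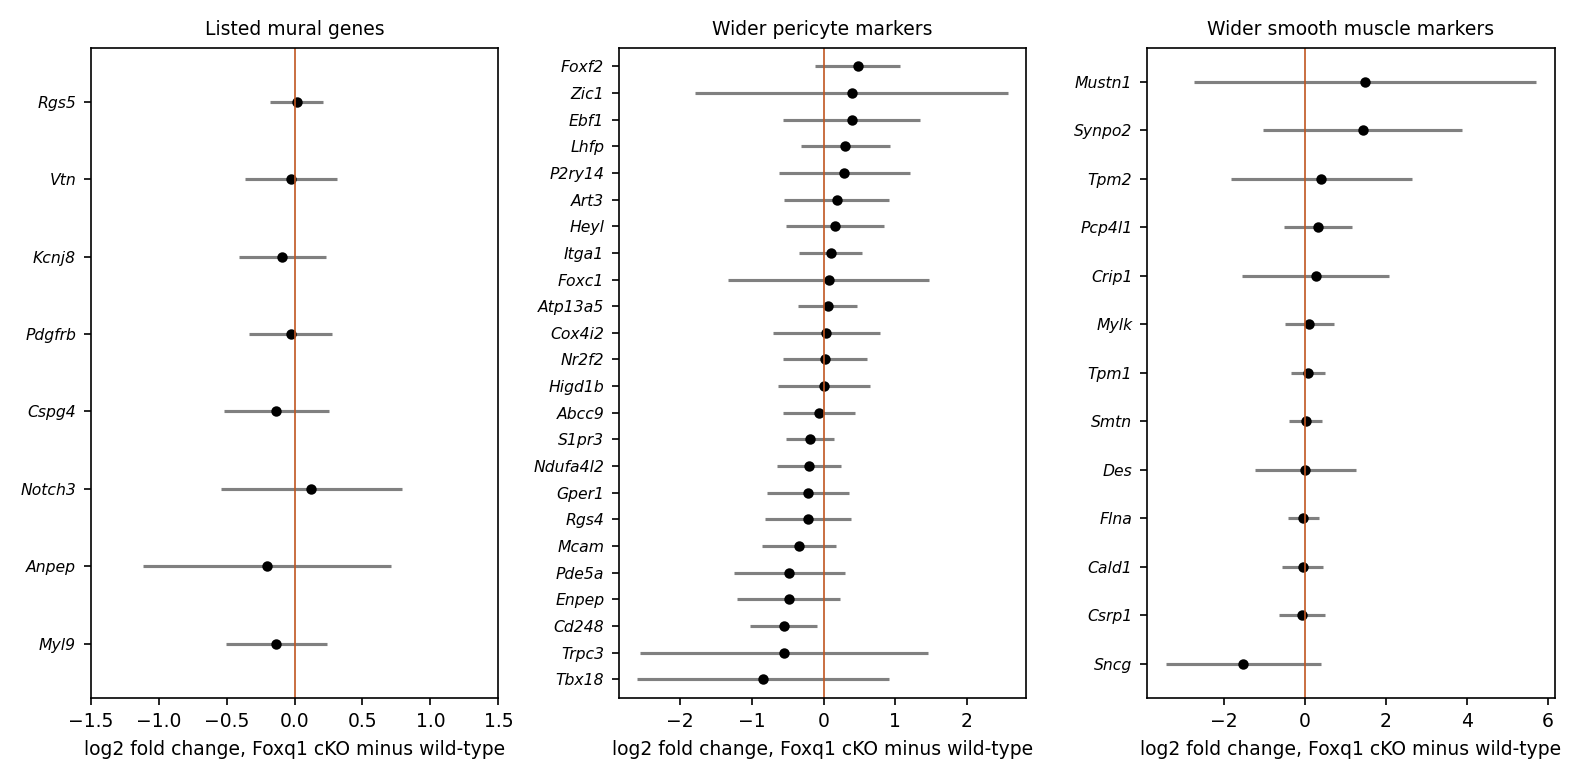
Log2 fold change of *Foxq1* cKO minus wild-type with its 95% interval from limma, for the 8 listed mural genes, 24 wider pericyte markers and 13 of the 14 wider smooth muscle markers with a row, on separate horizontal scales. All 8 intervals of the listed genes include 0, and that of *Cd248* among the wider pericyte markers does not.

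Of 15 regulators of contractile genes, which include serum response factor and its cofactors, 12 had a row under the symbols used. 0 of the 12 passed an unadjusted p of 0.05 in either direction, and the median log2 fold change was -0.06. The highest per kb were *Rhoa*, a small GTPase, at -0.06 (95% interval -0.36 to 0.24), the transcription factor *Klf4* at -0.15 (95% interval -1.04 to 0.74) and the serum response factor cofactor *Mrtfb* at -0.28 (95% interval -0.82 to 0.26).

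The PDGF-B pathway list held 23 genes, of which 22 were tested. 0 were higher and 1 was lower at an unadjusted p under 0.05, and the median log2 fold change was -0.15. *Pdgfb*, the endothelial ligand of PDGFRβ, had 1778 and 1437 normalized counts in wild-type against 2268 and 1512 in *Foxq1* cKO. The groups overlapped, and the log2 fold change was 0.21 (SE 0.289, 95% interval -0.49 to 0.92). The 1 gene that passed was *Ret*, which encodes the receptor of the glial-derived neurotrophic factor family and is not a PDGF receptor. It had 178 and 180 normalized counts in wild-type against 39.2 and 27.5 in *Foxq1* cKO, a log2 fold change of -2.41 (SE 0.777, unadjusted p 0.0206). Its adjusted p was 0.857 in limma with Benjamini-Hochberg adjustment, and without *Foxq1* cKO 2 its unadjusted p was 0.0808. *Shc1*, *Stat3* and *Gab1*, which carry signals inside the cell, were the most abundant of the list per kb and were at 0.00, -0.18 and -0.33.

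A further list held genes linked to signalling between ECs and mural cells, not all of which are signals, such as the transporter gene *Mfsd2a*. Of its 26 genes, 25 were tested, 0 were higher and 3 were lower at an unadjusted p under 0.05, and the median log2 fold change was -0.15. Over all genes tested 3.05% were lower at this threshold, and the groups did not overlap for 36.0%. *Edn1* encodes endothelin 1, a peptide of ECs that contracts smooth muscle. It had 2585 and 1383 normalized counts in wild-type against 528 and 362 in *Foxq1* cKO, and the groups did not overlap. In limma its log2 fold change was -2.11 (SE 0.415, unadjusted p 0.00218), and with Benjamini-Hochberg adjustment its adjusted p was 0.857. The adjusted p in DESeq2 was 0.000187 and in edgeR 0.937.

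*Angpt2* encodes angiopoietin 2, an EC ligand of the receptor Tie2 whose signal loosens the contact of pericytes with the vessel. It had 1823 and 1086 normalized counts in wild-type against 544 and 701 in *Foxq1* cKO. Both cKO samples were below both wild-type samples, with a log2 fold change of -1.19 (SE 0.369, unadjusted p 0.0179). Without wild-type 1 it was -0.81 with an unadjusted p of 0.0903.

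*Mfsd2a* encodes a lipid transporter of brain ECs whose expression is known to depend on pericytes. It had 29142 and 25765 normalized counts in wild-type against 22363 and 21721 in *Foxq1* cKO. Its log2 fold change was -0.31 (SE 0.113, 95% interval -0.59 to -0.04) and its unadjusted p was 0.0312. Scaled to the mean of the endothelial markers, it was -0.21 with an unadjusted p of 0.118. The other abundant genes of the list per kb were *Bsg*, an EC surface glycoprotein, at -0.16, and *Eng*, a coreceptor for transforming growth factor β, at -0.32 (95% interval -0.65 to 0.01). The receptor *Ednra*, through which endothelin 1 acts on mural cells, was chosen after its values were seen. It was at -0.49 (95% interval -1.10 to 0.12).

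**Figure D4:**
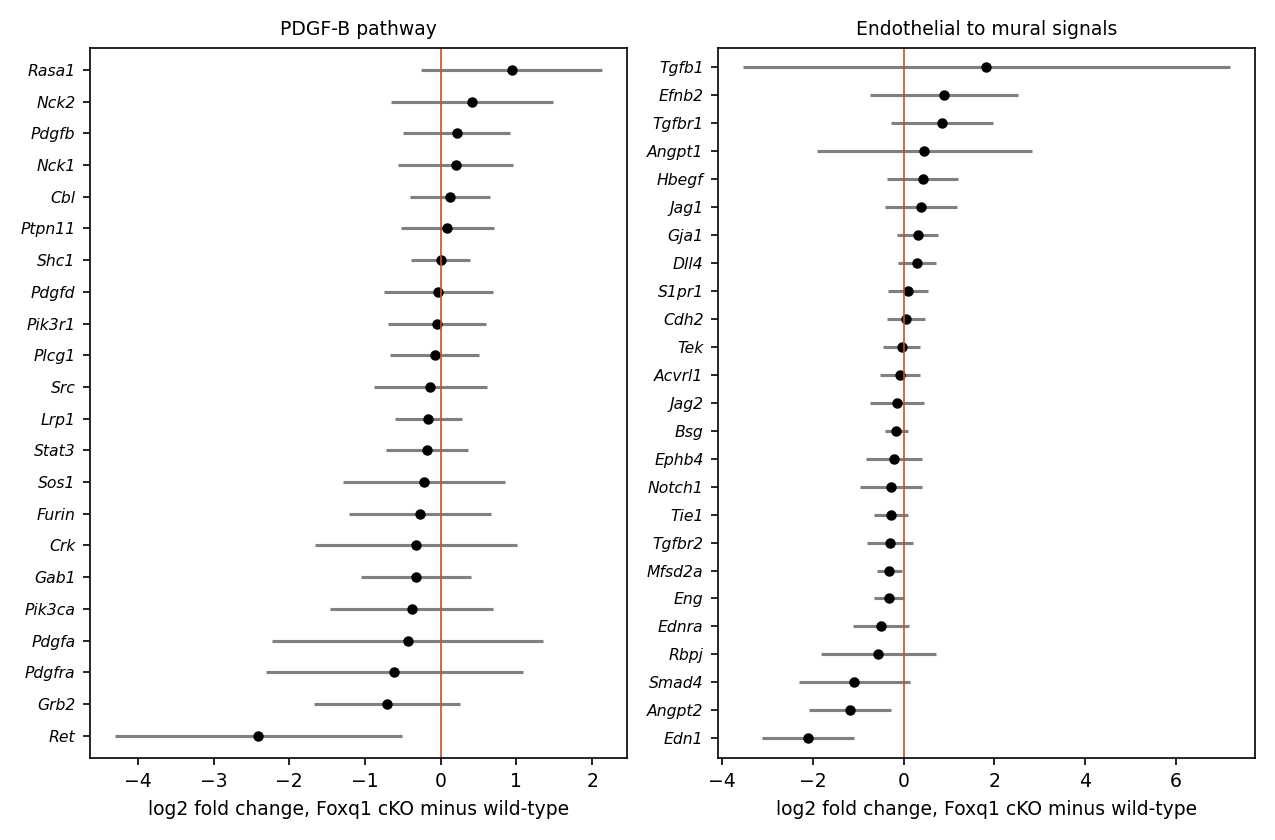
Log2 fold change of *Foxq1* cKO minus wild-type with its 95% interval from limma, for 22 genes of the PDGF-B pathway and 25 genes linked to signalling between ECs and mural cells. The latter include *Mfsd2a*, a transporter gene and not a signal. The intervals of *Ret*, *Edn1*, *Angpt2* and *Mfsd2a* lie below 0, and that of *Pdgfb* includes 0.

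Markers of the cell types that such a sort can hold were summed as shares of the reads. The 22 endothelial markers took 3.29% to 3.57% of the reads and were led per kb by *Cldn5* and *Itm2a*. 1 of the 22 was higher (*Itm2a*) and 2 were lower (*Flt1* and *Ly6c1*) at an unadjusted p under 0.05. The wider pericyte list took 0.417% to 0.472%, and its summed normalized count in *Foxq1* cKO was 93.1% of wild-type. Its sums were 85394 and 78651 in wild-type against 80704 and 72023 in *Foxq1* cKO, with overlap. It holds *Foxf2* and *Foxc1*, which the study names among potential key regulators in brain ECs. The 14 smooth muscle markers took 0.247% to 0.260% and stood at 96.8%, and they include *Flna*, which is expressed in many cell types. Neither share can be ascribed to mural cells alone. No marker with a row was at 0 in any sample, but this held for every gene listed and does not show that a cell type was present.

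The marker lists of other cell types took lower shares of the reads, which are not shares of cells. Radial glia and astrocyte markers, 12 genes led per kb by *Fabp7* and *Hes5*, took 0.156% to 0.183% of the reads, and 0 of 11 tested were higher and 2 (*Gfap* and *Ednrb*) were lower at an unadjusted p under 0.05. Erythroid markers, led by *Hba-a1* and *Hbb-bs*, took 0.0884% to 0.119%, 0 of 7 passed in either direction, and their summed level in *Foxq1* cKO was 99.7% of wild-type. Fibroblast markers, led by *Col3a1* and *Fbln1*, took 0.0439% to 0.0700%. Of the 9 fibroblast genes tested 0 passed in either direction, 8 had a log2 fold change below 0, and the sum was at 79.0% of wild-type. The summed normalized counts were 11771 and 12500 in wild-type 1 and 2, and 11590 and 7580 in *Foxq1* cKO 1 and 2. The lower sum was thus mainly that of *Foxq1* cKO 2. *Cd248* is also known from fibroblasts, and the part of the fibroblast markers in its difference was not tested.

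Microglia and macrophage markers, led by *C1qa* and *C1qb*, took 0.0451% to 0.0710% of the reads. Of the 14 genes, 0 were higher and 1 (*Csf1r*) was lower at an unadjusted p under 0.05, and their sum in *Foxq1* cKO was 69.7% of wild-type. Oligodendrocyte precursor markers, 4 genes led by *Olig1* and *Cspg4*, took 0.0410% to 0.0483%. *Cspg4*, also a listed pericyte gene, alone took 0.0291% to 0.0344%, so the share of this list cannot be ascribed to oligodendrocyte precursors. Neuron markers, 11 genes led by *Tubb3* and *Gap43*, took 0.0225% to 0.0321%. 0 genes of these last lists passed, and their sums in *Foxq1* cKO were 91.9% and 88.6% of wild-type. Both sums overlapped between the groups, and in both lists *Foxq1* cKO 1 was the lowest sample. The part of these cell types in the levels of the mural genes was not tested.

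**Figure D5:**
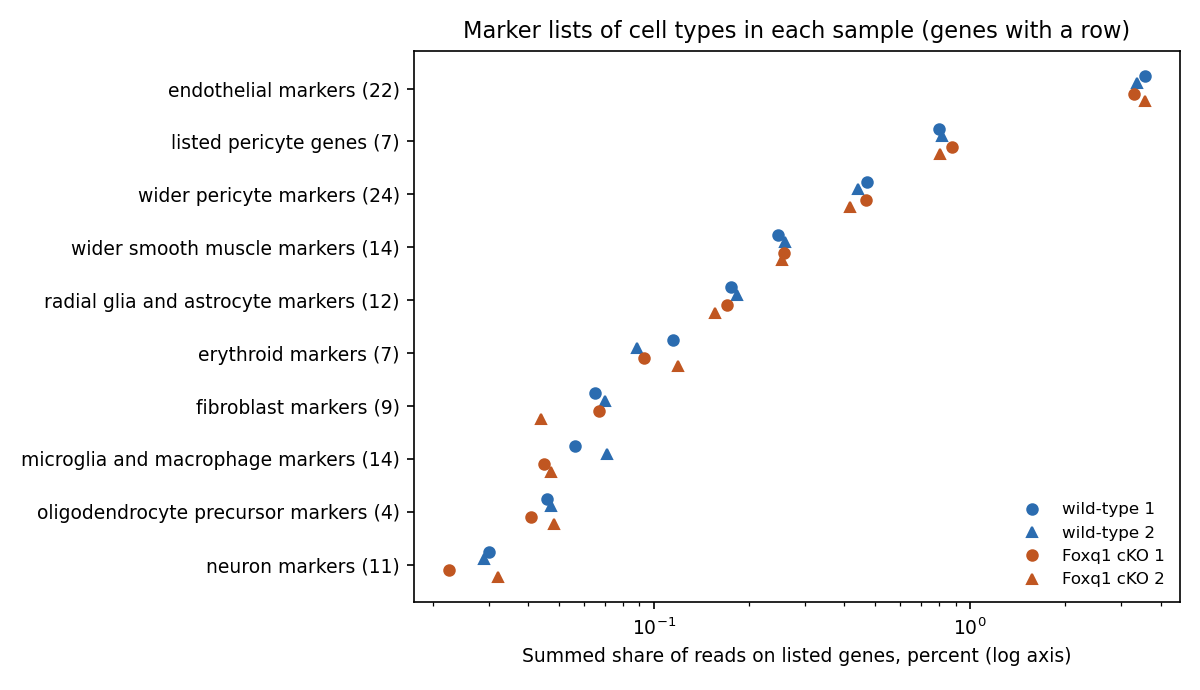
Share of reads (percent, log axis) taken by each marker list in each of the 4 samples, with the number of genes with a row in brackets. The 7 listed pericyte genes took 0.800% to 0.877%, or 0.284% to 0.337% without *Rgs5*, which is below the wider pericyte list, and the microglia markers were lower in both *Foxq1* cKO samples.

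The mean profile of the 8 mural genes over the samples was nearly flat. On the log2 scale, centred at the mean of the 4 samples, it was -0.01 and 0.07 in wild-type 1 and 2, and 0.05 and -0.11 in *Foxq1* cKO 1 and 2. Outside the lists, the genes whose centred values were most like it were *Plekha6*, *Sv2c* and *Gnptg*, with Pearson's r of 0.9999, 0.9997 and 0.9996 over 4 samples that share their libraries. 192 of the 11224 genes compared had an r of at least 0.95, so a likeness over 4 samples does not single out a gene.

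Promoter stretches are shown for the mural genes that hold either of 2 motifs in the RefSeq windows of 250 bp before to 50 bp after the gene's start (GRCm38.p6). The letters GTTTC, which the study discusses for FOXQ1, were found on either strand in 3 of 8 mural promoters searched (*Rgs5*, *Vtn* and *Acta2*), against 45.0% of 32851 mouse promoters. *Pdgfrb* and *Tagln* were not searched here. A CArG box, the site of serum response factor, was searched only in its strict form, with nothing but A or T between CC and GG. It was found in 1 of 8 (*Myl9*), against 1.63% of all promoters. Sites with another letter in the core were not counted, so the absence of a match does not mean that a promoter lacks such a site. Each stretch surrounds 1 match upstream of the gene's RefSeq start, which can differ from the start in the annotation used for the positions above. In that annotation *Acta2* starts at 34255590 on the minus strand, so its stretch lies within the annotated gene. The capitals mark the motif as it reads on the printed strand, which for *Rgs5* and *Vtn* is the reverse complement of GTTTC. A match is a description of the letters and not of binding.
Rgs5, chr1:169655307-169655361, plus strand: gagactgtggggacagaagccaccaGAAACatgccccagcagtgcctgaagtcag
Vtn, chr11:78498889-78498943, plus strand: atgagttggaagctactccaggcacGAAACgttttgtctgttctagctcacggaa
Acta2, chr19:34255509-34255563, minus strand: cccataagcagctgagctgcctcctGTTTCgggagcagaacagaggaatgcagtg
Myl9, chr2:156775278-156775337, plus strand: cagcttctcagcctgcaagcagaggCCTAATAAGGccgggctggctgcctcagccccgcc
The match shown begins 169 bp before the RefSeq start of *Rgs5* and 206 bp before that of *Vtn*. It begins 165 bp before that of *Acta2* and 161 bp before that of *Myl9*. *Rgs5* and *Vtn* each hold a further GTTTC on the strand of the gene, 11 and 9 bp after the RefSeq start. Of these genes, *Rgs5* and *Vtn* overlapped between the genotypes, and *Myl9* was at 91.0% of wild-type in *Foxq1* cKO.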

How the data were processed

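RNA-seq was measured in 2 wild-type and 2 *Foxq1* cKO samples, grouped by their labels. The authors deposited a single table that holds, for each gene and sample, a normalized signal equal to reads over a size factor (0.919 to 1.19). All values (100%) were whole reads within 0.1 reads when multiplied by it, so reads could be recovered. The submitters' processing notes name Bowtie2 2.2.3, TopHat2 2.0.12, HTSeq 0.6.0 and mm9, without role or order. Positions and lengths come from a GRCm38 annotation, matched by identifier (12685 of 12701).

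Repeated lines were reduced to 1 row per gene symbol. Genotypes were compared with limma 3.58.1 under R 4.3.3 (linear fit, empirical Bayes moderation along the mean trend). Values were log2 transformed after adding a pseudocount of 1, genes below a mean of 10 were left out (12472 remained), and p-values received Benjamini-Hochberg adjustment. Fold changes are on this scale, and intervals are at 95%. Scripts used Python 3.11.15 and were tested on simulated data. edgeR 4.0.16 (quasi-likelihood test) and DESeq2 1.42.0 on the recovered reads were alternatives, as were other pseudocounts, filters and scalings, the replicate block and leaving out each sample. The members and lists were chosen with earlier results of these data known. Genes named beyond the members were those of the mural and signalling lists with an unadjusted p under 0.05 or among the 3 highest per kb, and the 2 highest per kb of each other marker list. Relatives of the contractile genes and the genes of most similar profile were also named. *Pdgfb*, *Abcc9*, *Ednra* and the genes of other marker lists that passed an unadjusted p of 0.05 were named outside these rules. The 1 gene of the wider smooth muscle list that passed is not reported here. Amplified libraries do not give independent molecules. Replicates of a group differed by more than counting noise (chi-square per degree of freedom of 94.4 and 55.1).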

Additional observations from a re-analysis of the deposited data

How the results depend on the processing

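Over 11 alternative settings of the test, 0 of the 8 mural genes passed an unadjusted p of 0.05, and 82 of 88 log2 fold changes kept their sign. Other filters, moderation without the mean trend and the replicate block left each estimate unchanged, so under these settings no sign could change. Other pseudocounts moved the estimates little. The 6 that changed sign were small: with quantile normalization *Pdgfrb* was at 0.10, *Rgs5* at -0.066 and *Vtn* at 0.036, and with each sample scaled to the endothelial markers *Pdgfrb* was at 0.079, *Kcnj8* at 0.014 and *Vtn* at 0.080. *Cldn5* was at 0 with quantile normalization. The endothelial scaling moved the median of all genes tested to 0.11, and it put the summed pericyte genes at 107% and *Myl9* at 98.0% of wild-type.

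The median level of the 8 genes per kb was 156% of *Pecam1* and 3.40% of *Cldn5*. It was 88.1% of *Pecam1* with the longest transcript as the length, and 112% of the median endothelial marker.

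Leaving out 1 sample moved the log2 fold changes from -0.061 to 0.0075 for *Pdgfrb*, -0.015 to 0.045 for *Rgs5*, -0.21 to 0.022 for *Kcnj8*, -0.16 to 0.11 for *Vtn*, -0.26 to 0.51 for *Notch3*, -0.23 to -0.04 for *Cspg4*, -0.43 to 0.027 for *Anpep*, -0.21 to -0.06 for *Myl9* and -5.66 to -3.28 for *Foxq1*. The summed pericyte genes ranged from 95.2% to 104% of wild-type. Over the whole table, 651 genes had an unadjusted p under 0.05, with 276 without *Foxq1* cKO 1 and 1569 without wild-type 2. At an adjusted p under 0.05 DESeq2 called 59 genes where limma called 0. The causes were not tested.

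*Edn1* passed an unadjusted p of 0.05 in all 11 settings and without each of the 4 samples, *Ret* and *Angpt2* in all 11 and without 2 of the 4. *Cd248* and *Mfsd2a* passed in 9 and 8 of the 11, and each without 1 of the 4 samples.

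The labels give both groups the replicate numbers 1 and 2. Deviations of samples with the same number had a correlation of 0.03 over 12472 genes. This value cannot show whether such samples shared a litter, a sort or a batch. With the replicate block 693 genes had an unadjusted p under 0.05, 0 of the 8 mural genes among them, and the median over the 8 was -0.06.

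Over all genes tested the median SE was 0.496 on the log2 scale, so at 2 samples a group small differences in a gene of average level could not be detected.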
